A study of Mus musculus with 6 samples.

Results

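The dystrophin-glycoprotein complex is represented here by 8 genes of the 23185 that the arrays measured under 1 symbol each: Dag1, Sgca, Sgcb, Sgcd, Sspn, Dmd, Utrn and Dtna. They were chosen by symbol, and each had 1 probe set. The heart samples came from FVB mice, 3 from mice with a CRISPR/Cas9 knockout of irisin and 3 from wild type littermates. All had eaten standard chow with 10% fat for 24 weeks, and each sample was hybridised to its own Affymetrix array. The knockout was made with Cas9 mRNA and 5 guide RNAs injected into zygotes, so it is a germline model and not specific to heart muscle. Which bases of Fndc5, the gene of the irisin precursor, were removed and how many founder lines were used is not stated, and neither is sex or any age beyond the weeks on chow. Labels call the material cardiomyocytes in some fields and myocardium in another. Each array is described as coming from 1 animal, and that the animals of a group differ is likely but not stated, so the p-values rest on the variation among these samples.

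The complex spans the plasma membrane of muscle cells and ties the actin cytoskeleton to the basement membrane. Dag1 encodes dystroglycan, which is cut into an extracellular alpha part that binds laminin through its sugar chains and a transmembrane beta part. The beta part binds dystrophin, the product of Dmd, which in turn holds actin, or utrophin (Utrn), the paralog of dystrophin. The sarcoglycans (Sgca, Sgcb, Sgcd) and sarcospan (Sspn) form a subcomplex within the membrane beside dystroglycan, and alpha-dystrobrevin (Dtna) joins dystrophin to the syntrophins on the inside. Loss of dystrophin or of a sarcoglycan causes muscular dystrophy and cardiomyopathy.

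The membrane-spanning members were higher in knockout hearts, whereas the cytoskeletal members were lower or level. Dag1, Sspn, Sgcd, Sgca and Sgcb rose by 1.38, 1.36, 0.96, 0.76 and 0.59 log2 units, or 2.60-fold, 2.57-fold, 1.95-fold, 1.69-fold and 1.51-fold. Utrn fell by 0.72 log2 units, 1.64-fold. Dmd differed by -0.47 and Dtna by 0.02, and neither passed the test. So 5 of 8 members were called higher, against 10.4% of all genes, and 1 of 8 was called lower, against 6.18%. All 8 were among the brightest 10% of genes, of which 34.5% were called higher and 11.1% lower. The test was limma on the deposited log2 values, with the 3 knockout and 3 wild type arrays, adjusted by Benjamini-Hochberg over all 23185 genes, at a threshold of 0.05. The median difference of the 8 members was 0.68 (knockout minus wild type, log2), beside -0.05 over all genes and 0.27 over the brightest 10%.

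The annotated promoters of the genes that moved are shown because 5 members rose together and Utrn went the other way. RefSeq windows on GRCm38.p6, the C57BL/6J reference and not FVB, cover 250 bases before to 50 after each start and were found for 7 members. For Dag1 and Sspn, with 2 windows each, the more upstream one is printed. Capitals mark matches on either strand to the E-box CANNTG (bound by basic helix-loop-helix factors), the M-CAT core CATTCC (bound by TEAD factors) and the GC box GGGCGG (bound by Sp1). Runs of capitals longer than a motif are matches that touch or overlap.
Dag1 (chr9:108263909-108264208, minus strand): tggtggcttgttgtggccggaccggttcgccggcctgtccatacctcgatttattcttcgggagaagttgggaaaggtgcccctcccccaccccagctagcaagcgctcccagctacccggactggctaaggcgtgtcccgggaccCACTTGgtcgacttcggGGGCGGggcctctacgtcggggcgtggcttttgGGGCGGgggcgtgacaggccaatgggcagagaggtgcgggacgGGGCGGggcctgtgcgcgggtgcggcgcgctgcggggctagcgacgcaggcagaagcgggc
Sspn (chr6:145931623-145931922, plus strand): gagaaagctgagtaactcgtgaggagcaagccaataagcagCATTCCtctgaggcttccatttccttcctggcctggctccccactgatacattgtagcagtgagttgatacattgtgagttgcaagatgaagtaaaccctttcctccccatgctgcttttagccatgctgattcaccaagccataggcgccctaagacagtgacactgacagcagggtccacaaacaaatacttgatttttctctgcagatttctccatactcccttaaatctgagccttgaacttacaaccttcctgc
Sgca (chr11:94976278-94976577, minus strand): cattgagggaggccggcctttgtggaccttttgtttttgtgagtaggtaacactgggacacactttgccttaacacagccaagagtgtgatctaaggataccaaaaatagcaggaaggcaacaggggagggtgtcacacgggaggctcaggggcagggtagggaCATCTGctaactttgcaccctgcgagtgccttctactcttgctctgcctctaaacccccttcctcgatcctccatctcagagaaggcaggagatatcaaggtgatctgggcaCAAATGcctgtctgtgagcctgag
Sgcd (chr11:47379276-47379575, minus strand): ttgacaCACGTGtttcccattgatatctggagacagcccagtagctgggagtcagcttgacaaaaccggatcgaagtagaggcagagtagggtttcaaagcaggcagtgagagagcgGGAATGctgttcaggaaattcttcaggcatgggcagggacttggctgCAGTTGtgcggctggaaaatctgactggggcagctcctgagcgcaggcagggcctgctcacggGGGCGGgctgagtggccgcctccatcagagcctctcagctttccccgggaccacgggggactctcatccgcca
Utrn (chr10:12861686-12861985, minus strand): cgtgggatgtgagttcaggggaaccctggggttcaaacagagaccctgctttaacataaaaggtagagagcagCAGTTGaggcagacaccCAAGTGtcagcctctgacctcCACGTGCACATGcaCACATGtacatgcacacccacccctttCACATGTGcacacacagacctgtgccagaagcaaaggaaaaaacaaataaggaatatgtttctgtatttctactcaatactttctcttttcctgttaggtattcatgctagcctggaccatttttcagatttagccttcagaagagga

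The promoters of the genes that rose had no searched motif in common. Dag1 held 1 E-box and 3 GC boxes in the window shown, with a GC content of 69.7%. Its other window, which overlaps the 1 shown, held 1 E-box and 4 GC boxes, with a GC content of 75.3%. Sspn held 1 M-CAT core in the window shown, and its other window held 1 M-CAT core and 1 E-box. Sgca held 2 E-boxes, Sgcd held 2 E-boxes, 1 M-CAT core and 1 GC box, and the Sgcb window, not printed, held 1 GC box. The Utrn window held 7 E-boxes, some of them overlapping. Of all 32851 windows of that length, 72.3% had an E-box, 0.177% had 7 or more, 14.7% an M-CAT core and 35.7% a GC box. The cutoff of 7 equals the Utrn count, the highest of the 10 windows searched, so the share of 0.177% is no test. The MEF2 motif, CTA and TAG with 4 bases between them, was present in 3.69% of all windows. It was matched in none of the 10 windows searched, which include none of Dtna.

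Fndc5, the gene that was targeted, was lower in knockout hearts, but unevenly. Fndc5 stood at 7.68, 5.49 and 5.45 log2 units in knockout replicates 1, 2 and 3, against 8.42, 8.40 and 7.83 in wild type replicates 1, 2 and 3 (limma, difference -2.01, SE 0.54, adjusted p = 0.0359). Knockout replicate 1 thus lay close to the wild type arrays. The call held without that array (-2.75, adjusted p = 0.00217) and was lost without any other single array (0.0617 to 0.133). Replicates numbered 1 also had the highest atrial marker values of their groups: the mean over 6 atrial genes was 5.96, 3.66 and 3.42 in knockout replicates 1, 2 and 3 and 9.34, 4.58 and 5.69 in wild type replicates 1, 2 and 3. Myl7, an atrial myosin light chain, read 5.09, 2.44 and 1.33 in the knockout and 10.16, 4.22 and 5.55 in wild type, and Myl4, another, 6.27, 2.49 and 2.68 against 10.80, 5.72 and 7.05. Counts are therefore also given without both arrays numbered 1; this alternative was added once the values were known. Under it the same 5 members were called higher, against 7.63% of all genes, and 0 lower, against 4.05%. Array medians over all named genes lay between 2.23 and 2.36, and 3 arrays per group limit the precision.

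Dystroglycan had the largest difference of the 8. Dag1 stood at 9.40, 9.45 and 9.07 log2 units in knockout replicates 1, 2 and 3, against 8.30, 7.79 and 7.71 in the wild type replicates. Every knockout array lay above every wild type array, with a gap well beyond the spread within groups. Knockout arrays averaged 9.31 ± 0.21 and wild type arrays 7.93 ± 0.32 (SD, n = 3 each), a difference of 1.38 (SE 0.18, 95% interval 0.96 to 1.80, limma adjusted p = 0.00213). The call held in all 6 fits that leave out 1 array, with adjusted p up to 0.0148.

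Sarcospan, a small tetraspanin-like membrane protein that binds the sarcoglycans, followed closely. Sspn read 7.99, 8.03 and 7.51 in the knockout, against 6.92, 6.16 and 6.36 in wild type. The groups did not overlap, although the spread within each was the widest among the 5 members that rose. Knockout arrays averaged 7.84 ± 0.29 and wild type arrays 6.48 ± 0.39 (SD, n = 3 each), a difference of 1.36 (SE 0.22, 95% interval 0.86 to 1.87, limma adjusted p = 0.00467). The array-by-array profile of Sspn was the closest to that of Dag1 among the 28 pairs of members. After subtracting each gene's mean, they differed by 0.10 log2 units (root mean square over 6 arrays). Genes outside the complex came closer to Dag1, the 5 nearest at 0.069 to 0.077, so this likeness is not particular to the pair. In both Dag1 and Sspn knockout replicate 3 was the lowest of its group and wild type replicate 1 the highest of its group.

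All 3 sarcoglycans of the set rose. These single-pass proteins assemble with one another before they reach the membrane. Sgcd, delta-sarcoglycan, read 6.73, 6.69 and 6.43 in the knockout, against 5.72, 5.77 and 5.48 in wild type. The lowest knockout value was above the highest wild type value, and the difference was 0.96 (SE 0.14, 95% interval 0.65 to 1.27, limma adjusted p = 0.0028). Sgca, alpha-sarcoglycan, which is restricted to striated muscle, read 8.39, 8.30 and 8.30 in the knockout, against 7.48, 7.72 and 7.51 in wild type. Its knockout values were tightly grouped and did not overlap the wild type ones (difference 0.76, SE 0.12, 95% interval 0.49 to 1.03, limma adjusted p = 0.00407). Sgcb, beta-sarcoglycan, the core partner of delta-sarcoglycan, read 7.25, 7.36 and 7.25 in the knockout, against 6.79, 6.65 and 6.63 in wild type. Again the groups were apart, with a difference of 0.59 (SE 0.11, 95% interval 0.34 to 0.85, limma adjusted p = 0.00892). Quantile normalization, which forces all arrays to 1 distribution, lowered the Sgcb difference to 0.37, which missed the threshold (adjusted p = 0.0518).

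**Figure D1:**
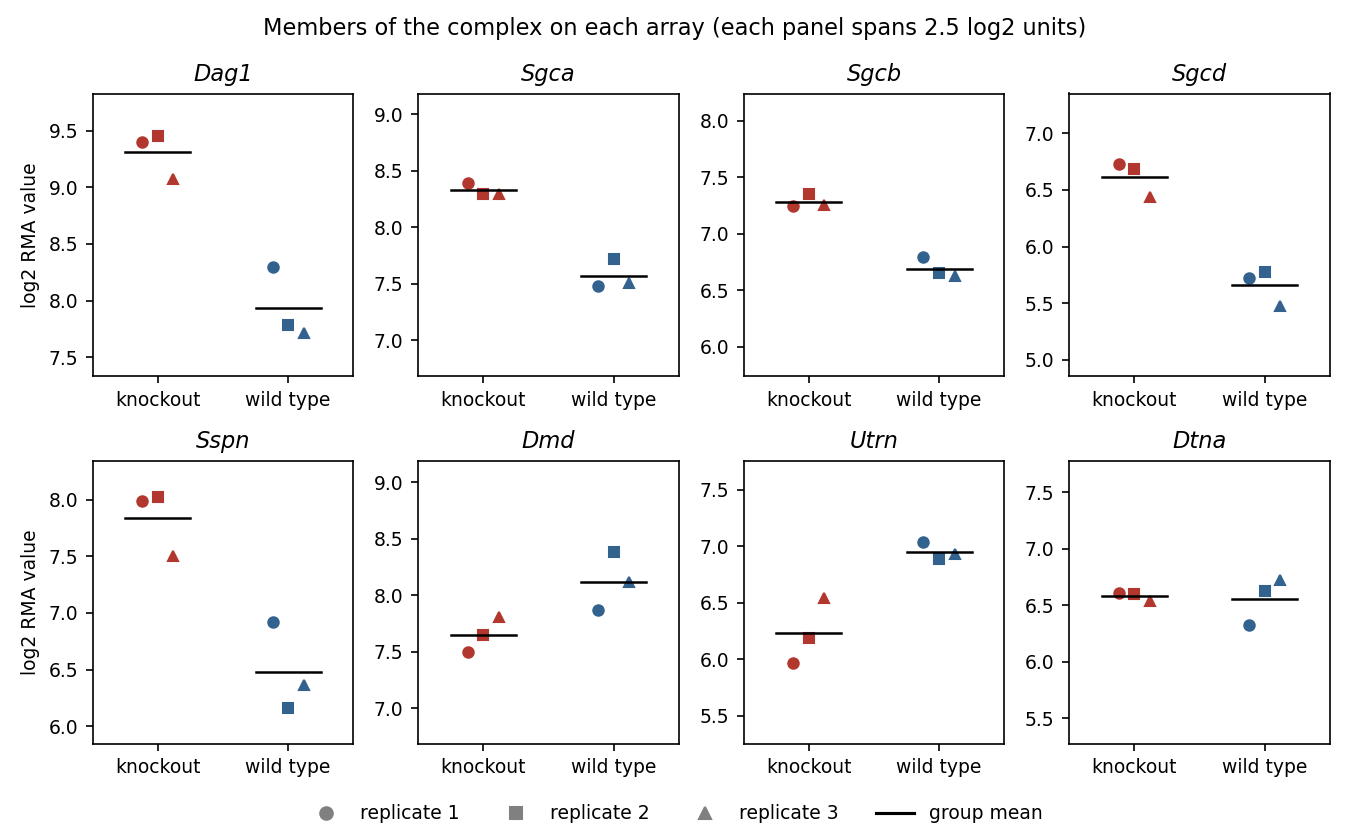
Deposited log2 RMA values of the 8 members, a panel for each, with knockout arrays on the left, wild type arrays on the right, a marker shape for each replicate number and a line at the group mean; every panel spans the same number of log2 units. Dag1, the sarcoglycans and Sspn lie higher in all 3 knockout arrays, Dmd and Utrn lie lower in all 3, and Dtna overlaps.

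Dystrophin went the other way from its membrane partners. Dmd read 7.49, 7.65 and 7.81 in the knockout, against 7.87, 8.38 and 8.12 in wild type. The groups did not overlap, but knockout replicate 3 and wild type replicate 1 lay only a small step apart. Knockout arrays averaged 7.65 ± 0.16 and wild type arrays 8.12 ± 0.26 (SD, n = 3 each), and the difference of -0.47 (SE 0.16, 95% interval -0.83 to -0.11) missed the threshold (limma adjusted p = 0.0827). Quantile normalization put it past the threshold (-0.72, adjusted p = 0.0254), as did leaving out wild type replicate 1 (-0.60, adjusted p = 0.0333). Dmd has several promoters, and 1 value per gene does not separate full-length dystrophin from its shorter forms.

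Utrophin was the only member called lower. Utrn read 5.97, 6.19 and 6.55 in the knockout, against 7.04, 6.88 and 6.94 in wild type. Wild type arrays were tightly grouped, and all 3 knockout arrays lay below them. Knockout arrays averaged 6.24 ± 0.29 and wild type arrays 6.95 ± 0.08 (SD, n = 3 each), a difference of -0.72 (SE 0.16, 95% interval -1.08 to -0.35, limma adjusted p = 0.0171). The call was lost without knockout replicate 1 (-0.58, adjusted p = 0.0622), without knockout replicate 2 (-0.70, adjusted p = 0.0705) and without both arrays numbered 1 (-0.54, adjusted p = 0.104). The sign was negative in every setting run.

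Alpha-dystrobrevin was level between the groups. Dtna read 6.61, 6.60 and 6.54 in the knockout, against 6.33, 6.62 and 6.73 in wild type. The knockout values fell inside the wild type range, with a difference of 0.02 (SE 0.13, 95% interval -0.28 to 0.33, limma adjusted p = 0.934). The sign of so small a value turned with the scaling, to -0.19 after quantile normalization.

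**Figure D2:**
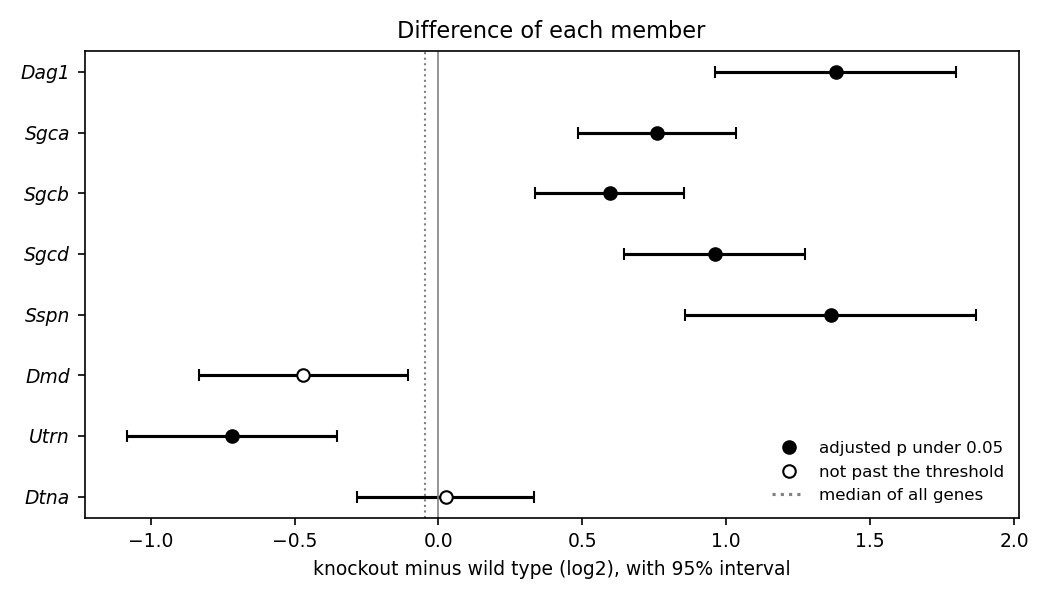
Difference of each member (knockout minus wild type, log2 units) with its 95% interval from limma; filled points passed the adjusted threshold, open points did not, and the dotted line is the median of all genes at -0.05. The 5 membrane-spanning members lie to the right of 0, Dmd and Utrn to the left, and the interval of Dtna holds 0.

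In 7 of 8 members the 3 knockout values lay wholly to 1 side of the 3 wild type values, 5 above and 2 below, whereas 17.2% of all genes were wholly above and 17% wholly below. All 8 members belonged to the brightest 10% of genes by mean level. Among those genes 34.5% were called higher and 11.1% lower, with a median difference of 0.27, so that higher calls were more frequent among bright genes in general. After quantile normalization the median of the bright genes was 0.04 and the median of the 8 members 0.44, with 4 called higher and 2 lower. Centring each array on its median moved the median of all genes to 0.06, a shift of 0.10, and left 5 members higher and 1 lower.

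Differences between members on the same array do not depend on a constant scaling of that array. Only their shift between groups is read here, since levels of different probe sets are not comparable. Dag1 minus Dmd was 1.91, 1.80 and 1.27 in knockout replicates 1, 2 and 3, against 0.43, -0.59 and -0.41 in the wild type replicates. The groups did not overlap, and the mean shift was 1.85 log2 units. Sgca minus Dmd was 0.90, 0.65 and 0.49 in the knockout, against -0.39, -0.66 and -0.61 in wild type, a shift of 1.23. Those pairs were picked after the values were seen, as a member that was higher against one that was lower, so they carry no test and their lack of overlap follows from the choice.

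Dystrophin and its paralog, in contrast, were not shown to differ in response. Dmd minus Utrn was 1.53, 1.46 and 1.26 in the knockout, against 0.83, 1.50 and 1.18 in wild type, and the groups overlapped. The shift was 0.25, with a two-sided exact permutation p of 0.3, where 3 arrays against 3 cannot go below 0.1. Without wild type replicate 1 the shift was 0.08, and without wild type replicate 2 it was 0.41. The striated-muscle gene Sgca was set against its widely expressed paralog Sgce in the same way. Sgca minus Sgce was 4.06, 3.59 and 3.82 in the knockout, against 2.75, 3.73 and 3.08 in wild type, where replicate 2 reached into the knockout range (shift 0.64, two-sided exact permutation p = 0.2). Without wild type replicate 1 the shift was 0.42.

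Genes with the closest profiles were sought for Dmd and for Dag1, the member with the lowest p, among 10916 other genes above the median level, leaving out predicted genes, microRNAs and snoRNAs. Likeness was the root mean square difference over the 6 arrays after subtracting each gene's mean. Nearest to Dmd were Prpf40b (0.028 log2 units), Dicer1 (0.040), Chd7 (0.046), Baz1b (0.049) and Ankrd9 (0.055), which missed the adjusted threshold as Dmd did. Nearest to Dag1 were Trmt5 (0.069), Cnep1r1 (0.069), Ndufc1 (0.072), Jph1 (0.075) and Borcs8 (0.077), with differences of 1.30 to 1.44. This likeness is a description over 6 arrays in 2 groups.

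Relatives of the members within the complex did not rise with them as a family. Of 7 other sarcoglycan, syntrophin and dystrobrevin genes measured, 1 rose, 0 fell and 6 did not pass, with a median of -0.08. Among all genes 10.4% rose and 6.18% fell. Sntb1, beta-1-syntrophin, an adaptor that binds dystrophin and utrophin, read 6.66, 5.87 and 5.45 in the knockout, against 4.81, 5.06 and 4.90 in wild type. Its groups were apart but the knockout arrays were spread out (difference 1.07, SE 0.27, limma adjusted p = 0.0296). The call was lost after quantile normalization (0.0552), with array weights (0.0501), without wild type replicate 1 (0.0626) or 3 (0.0781), without knockout replicate 2 (0.0793), and without both arrays numbered 1 (0.0711, difference 0.68, over 1.5 times smaller). Sgce, epsilon-sarcoglycan, differed by 0.12, Sntb2, beta-2-syntrophin, by -0.39 and Dtnb, beta-dystrobrevin, by -0.32. Sgcz, Sntg1 and Sntg2, relatives expressed mainly in nerve tissue or at low level, differed by -0.08, -0.05 and -0.17 and read below 2 log2 units on every array, where signal cannot be told apart from background. The adjusted p of these 6 genes ran from 0.149 to 0.844.

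Most enzymes that build the laminin-binding sugar chain of alpha-dystroglycan did not pass the test. Of 15 measured genes of that list, Dag1 itself included, 3 rose, 0 fell and 12 did not pass, with a median of 0.24, beside 10.4% higher and 6.18% lower among all genes. In 6 of the 15 the knockout values lay wholly above the wild type values and in 1 wholly below, against 17.2% and 17% of all genes. Pomt1, which with its partner adds the first mannose, read 4.04, 4.43 and 3.87 in the knockout, against 3.08, 2.80 and 2.72 in wild type. That difference of 1.25 (SE 0.17, limma adjusted p = 0.00245) held in all 6 fits without 1 array. Pomgnt2, which extends the mannose, was higher by 0.92 (SE 0.20, adjusted p = 0.0161), but not past the threshold without knockout replicate 2 (0.0677) or 3 (0.0558). After centring each array on its median 5 genes of the list passed as higher.

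Several genes of ligands on the outer side were lower in knockout hearts. Of 9 measured genes for extracellular proteins that bind dystroglycan or the complex, 0 rose, 6 fell and 3 did not pass, with a median of -0.77. Of all genes 6.18% fell, and of the brightest 10%, which hold 7 of the 9, 11.1% fell. Agrn, which encodes agrin, read 4.73, 4.64 and 4.91 in the knockout, against 5.50, 5.86 and 5.96 in wild type. That is a fall of 1.01 (SE 0.15, limma adjusted p = 0.0035), with no overlap. Hspg2, which encodes perlecan, fell by 0.84 (SE 0.16), and the laminin chains Lama4 and Lamc1 fell by 0.78 (SE 0.15) and 0.86 (SE 0.17). Lama2, the alpha-2 chain of muscle laminin and the main ligand of dystroglycan in heart, read 6.53, 6.96 and 6.91 in the knockout, against 7.20, 7.54 and 7.34 in wild type. Its fall of 0.56 (SE 0.16, adjusted p = 0.0423) was lost without any 1 array other than wild type replicate 1 (0.0702 to 0.136) and after centring (0.0909). Without both arrays numbered 1, 2 of the 9 fell, Agrn and Hspg2, while Lama4 (-0.60, 0.0640) and Lamc1 (-0.64, 0.0601) missed the threshold.

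Inside the cell, the list of partners of the complex and other linkers of the costamere held genes that rose and genes that fell. Of 22 measured genes, 4 rose, 3 fell and 15 did not pass, with a median of 0.05. All genes were called higher in 10.4% and lower in 6.18%, and the brightest 10% of genes, which hold 14 of these 22, in 34.5% and 11.1%, so the counts do not set the list apart. Sync, which encodes syncoilin, an intermediate filament protein that binds alpha-dystrobrevin, read 7.18, 7.04 and 6.87 in the knockout, against 6.07, 5.42 and 5.52 in wild type. Its rise of 1.36 (SE 0.18, limma adjusted p = 0.00223) was close to that of Dag1. Cavin4, a muscle caveolar coat protein, rose by 1.04 (SE 0.15) and Actn2, alpha-actinin of the Z-disc, by 0.76 (SE 0.15). Cavin1, the caveolar coat protein of many cell types, fell by 0.70 (SE 0.15) and Tln1, talin-1, which links integrins to actin, by 0.54 (SE 0.12). Of the genes that fell, 0 did so without knockout replicate 1 or without both arrays numbered 1, and 1 did so without knockout replicate 2 or 3. Both Cavin1 (0.0633) and Tln1 (0.0682) lost their calls without knockout replicate 1, Cavin1 also without replicate 3 (0.0537) and Tln1 without replicate 2 (0.0607). Without both arrays numbered 1 the adjusted p of Cavin1 was 0.101 and that of Tln1 0.0986.

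Genes of membrane repair, the resealing of tears in the muscle membrane, also included both directions. Of 15 measured, 3 rose, 6 fell and 6 did not pass, with a median of -0.27, beside 10.4% higher and 6.18% lower among all genes. Of the 15, 10 were among the brightest 10% of genes, where 34.5% were higher and 11.1% lower. Trim72, the muscle protein MG53 that starts repair, read 8.78, 8.80 and 8.67 in the knockout, against 7.91, 7.85 and 7.69 in wild type. This rise of 0.93 (SE 0.12, limma adjusted p = 0.0017) held in all 6 fits without 1 array. Anxa2 and S100a10, which form a calcium-dependent membrane-binding tetramer, fell by 1.58 (SE 0.16) and 1.17 (SE 0.17). Ahnak, a large scaffold that binds that tetramer, fell by 0.89 (SE 0.13) and Myof, myoferlin, by 1.19 (SE 0.19). Those 4 falls passed in all 6 fits without 1 array and without both arrays numbered 1.

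**Figure D3:**
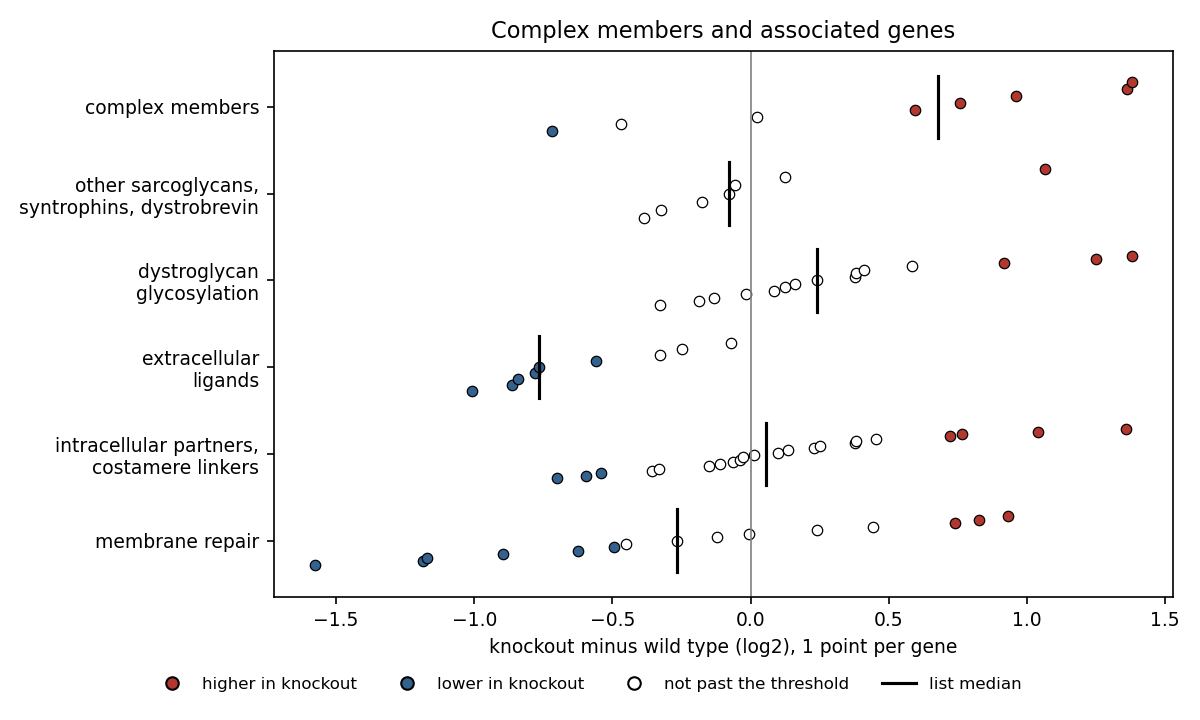
Difference (knockout minus wild type, log2 units) of every measured gene in the complex and in 5 lists of associated genes, 1 point per gene, coloured where it passed the adjusted threshold, with a line at the list median. The complex members have a median of 0.68, the extracellular ligands one of -0.77, and the other lists lie between.

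Some markers of some other cell types moved with genotype, and the complex is not made by cardiomyocytes alone. In bulk RNA such as this, fewer cells of a type and less RNA per cell cannot be told apart. Of all genes 10.4% were called higher and 6.18% lower, and of the brightest 10% of genes 34.5% and 11.1%. Those bright genes held 12 of 12 cardiomyocyte, 5 of 9 smooth muscle, 3 of 7 pericyte and 7 of 10 endothelial markers. They also held 9 of 12 fibroblast and 0 of 9 macrophage markers. Cardiomyocyte markers were level as a list: 1 of 12 rose (Pln, phospholamban, 0.76, adjusted p = 0.0274), 0 fell, and the list's mean lay at 10.65 to 10.82 in the knockout and 10.52 to 10.95 in wild type. The Pln call was lost without any 1 knockout array (0.0773 to 0.0984) and without both arrays numbered 1 (0.0846). In the fits that omit wild type replicate 1 or knockout replicate 3, 1 marker fell. Smooth muscle, pericyte and endothelial markers, and all but 1 fibroblast marker, also read above the median level of all genes. Smooth muscle markers fell for 6 of 9, with list means of 5.08 to 5.38 in the knockout and 6.22 to 7.85 in wild type. Differences over that list ran from -3.04 to 0.38. Myl9 fell by 2.74, Acta2 by 2.16, Tagln by 2.83, Mylk by 1.04 and Myh11 by 2.35, and 3, 2 and 3 markers fell without knockout replicate 1, 2 or 3. Mylk (0.0682 to 0.0846) and Myh11 (0.0521 to 0.0985) lost their calls without any 1 knockout array, Myh11 also without both arrays numbered 1 (0.0986), and Tagln without knockout replicate 2 (0.0508).

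Fibroblast markers fell for 5 of 12, with list means of 6.15 to 6.31 in the knockout and 6.56 to 7.30 in wild type. Differences over that list ran from -2.50 to 0.10. Named by the lowest p, those that fell were Col1a1 (-2.50), Col1a2 (-2.05), Gsn (-0.81), Dpt (-1.05) and Pdgfra (-0.65). The number was 8 without wild type replicate 2, and 3 without knockout replicate 2 or 3 or without both arrays numbered 1. Dpt lost its call without knockout replicate 2 (0.0599) or 3 (0.0536) and without both arrays numbered 1 (0.0590), and Pdgfra without any 1 array other than wild type replicate 2 (0.0840 to 0.149), without both arrays numbered 1 (0.225) and after centring (0.0733). Endothelial markers fell for 3 of 10, Egfl7 (-1.27), Pecam1 (-0.52) and Fabp4 (-0.68), with list means of 6.61 to 6.89 and 7.09 to 7.23 in knockout and wild type. Differences over that list ran from -1.27 to 0.17. Of its markers, 1 fell without knockout replicate 1 or 2. Pecam1 lost its call without either (0.0753 and 0.0677) and without both arrays numbered 1 (0.121), and Fabp4 without any 1 array other than wild type replicate 1 (0.0680 to 0.157) and after centring (0.0701). Pericyte markers rose for 3 of 7 (Rgs5 by 1.23, Kcnj8 by 1.49 and Abcc9 by 1.01) and Mcam fell by 1.21, with list means of 6.57 to 6.75 and 6.23 to 6.66. Abcc9 was no longer called without wild type replicate 3 or any 1 knockout array (0.0550 to 0.104), nor after quantile normalization (0.0939). Counts of pericyte markers that fell were 3 without wild type replicate 1 and 2 without both arrays numbered 1. Among macrophage markers 1 of 9 fell (Mrc1, by 0.66), with list means of 4.16 to 4.19 and 4.33 to 4.39, and 2 fell without wild type replicate 3. Of all genes 6.18% fell, so a count of 1 does not set that list apart.

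Atrial, Schwann cell, adipocyte and skeletal muscle markers had 0 calls in limma among 6, 5, 5 and 10 measured genes, where 2, 2, 0 and 4 had an unadjusted p under 0.05. The atrial list means were those given above, and 3 of its genes fell without both arrays numbered 1, 1 without wild type replicate 2 and 1 without knockout replicate 1, while 1 rose without wild type replicate 1. With the replicate number as a block 3 fell, Myl4 (adjusted p = 0.000566) and Myl7 (0.00632) among them. Schwann cells carry dystroglycan and a short dystrophin, and their list means were 1.64 to 1.96 in the knockout and 2.06 to 2.35 in wild type, led by Ngfr (-0.49, adjusted p = 0.0557) and Sox10 (-0.39, 0.144). Ngfr fell without knockout replicate 3 (0.0269). For adipocytes the list means were 1.85 to 2.07 and 1.74 to 2.36, with Plin1 at -0.17 (0.622) and Cidec at -0.27 (0.702, and 0.0132 without wild type replicate 2). The skeletal muscle list means were 3.00 to 3.09 and 3.07 to 3.21, with Mylpf at -0.33 (0.128) and Atp2a1 at -0.40 (0.0677, and 0.0486 without wild type replicate 1). The part of any of these cell types in the differences of Utrn, the laminins and the other members was not tested.

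**Figure D4:**
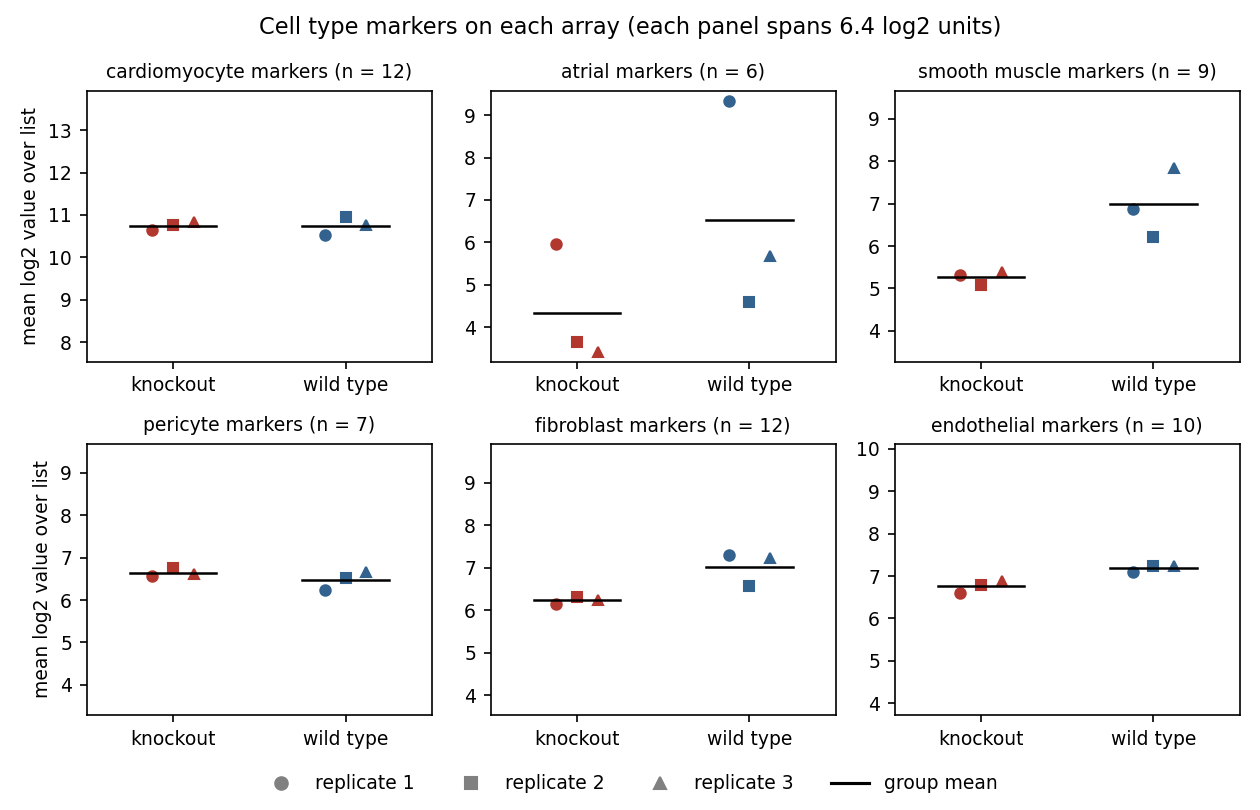
Mean log2 value over 6 lists of cell type markers on each array, knockout on the left and wild type on the right, with a marker shape for each replicate number and a line at the group mean; every panel spans the same number of log2 units. Cardiomyocyte means overlap, smooth muscle, fibroblast and endothelial means are lower in all 3 knockout arrays, and the arrays numbered 1 have the highest atrial mean in each group.

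The calls of the membrane-spanning members were little affected by the choices of processing. Dag1, Sspn, Sgca and Sgcd passed in all 18 other settings, including both scalings and each left-out array, and Sgcb passed in 17. Over those settings the difference ran from 1.10 to 1.56 for Dag1, 1.13 to 1.58 for Sspn, 0.77 to 1.06 for Sgcd, 0.51 to 0.86 for Sgca and 0.37 to 0.70 for Sgcb. The lowest value of each came from quantile normalization. For Dmd the range was -0.72 to -0.34 and for Utrn -0.92 to -0.54, with the lowest value from the same scaling.

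**Figure D5:**
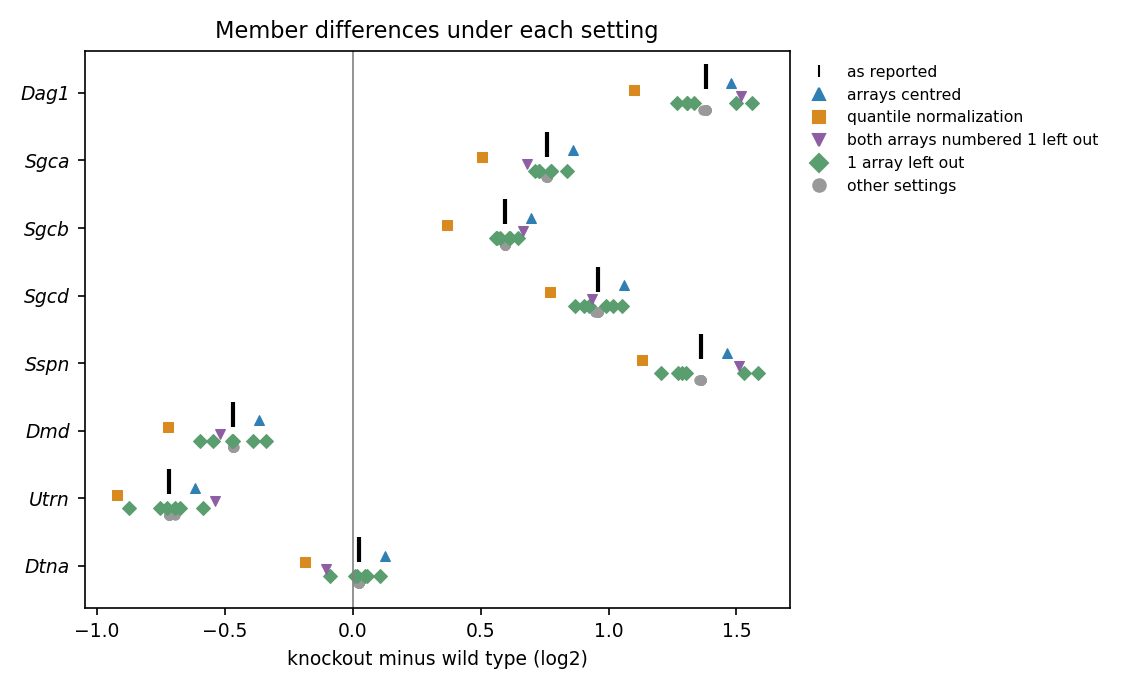
Difference (knockout minus wild type, log2 units) of each member as reported, after each scaling, without single arrays, without both arrays numbered 1 and under the other settings of the model and filter. Dag1, Sspn and the sarcoglycans stay to the right of 0 in every setting, Dmd and Utrn to the left, and Dtna lies on both sides.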

How the data were processed

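TRIzol-extracted total RNA of 3 irisin knockout and 3 wild type samples was biotin-labelled for Affymetrix arrays, per the labels' protocols. Each array has 1 deposited log2 value per probe set. The submitters' processing notes name RMA, affy 1.61.0 and R 3.6.0 as the tools of the authors; the log2 scale was inferred from values of 0.093 to 12.96. No source used here gives the probe set definition or the build, and no detection calls were used. Of 25206 rows, 23185 had 1 symbol in the platform annotation, 0 had several and 2021 had none and stayed out of the tests.

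Groups came from the sample titles. Each gene was tested with limma 3.58.1 (lmFit, eBayes, R 4.3.3), a two-sided test of genotype without covariates or a filter on dim genes. Alternatives were quantile normalization, centring, filters on dim genes, all rows, a variance trend, robust variances, array weights, a replicate block, each array left out, both arrays numbered 1 left out (added after seeing the data), and thresholds of 0.01 and 0.1. The code was tested on simulated data. Within-array differences of gene pairs had an exact permutation test (scipy 1.17.1), and plots used matplotlib 3.10.9.

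Members and lists were chosen with earlier results of these data known. Named are the 8 members, Fndc5, all measured sarcoglycan, syntrophin and dystrobrevin relatives, and in each other list at most 5 called genes in order of p (where 0 were called, the 2 lowest), and the 5 nearest profiles to Dmd and to the member with the lowest p. Listed genes with no row under their name were not analysed here.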

Additional observations from a re-analysis of the deposited data

How the results depend on the processing

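The 8 members gave 144 comparisons with other settings: 133 kept direction and side of the threshold, 5 lost a call, 3 gained one and 3, all of Dtna, turned sign. Dtna read -0.19 after quantile normalization, -0.11 without both arrays numbered 1, and -0.0906 to 0.107 without 1 array, the lowest being without wild type replicate 1. Members called lower numbered 2 after quantile normalization, 2 at a threshold of 0.1, 0 at 0.01, 0 without both arrays numbered 1, and 0 to 2 over the fits without 1 array; members called higher numbered 4 or 5 throughout. Of all genes, 1403 to 2570 were higher and 701 to 1593 lower in the fits without 1 array, against 2416 and 1432. At a threshold of 0.01 there were 1256 and 528, at 0.1 there were 2212 lower, and 938 were lower without both arrays numbered 1. Quantile normalization gave 1886 higher and 1528 lower, centring 3090 and 1008.

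Small differences of other genes turned sign. After quantile normalization and after centring, Sgcz read 0.0226 and 0.0236 and Sntg1 0.0296 and 0.0459. Without both arrays numbered 1, Plin1 read 0.0430 and Cidec 0.0754. Without 1 array, values ran from -0.0714 to 0.295 for Sgce, -0.207 to 0.0297 for Sgcz, -0.152 to 0.0431 for Sntg1, -0.338 to 0.0462 for Plin1 and -0.798 to 0.0698 for Cidec. The shift of Dmd minus Utrn ran from 0.08 to 0.41 and that of Sgca minus Sgce from 0.42 to 0.91 without 1 array. The cause of these changes was not tested.

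With the replicate block, 5 members were higher and 1 lower (2247 and 1330 of all genes), and the block changed no call of a member. It moved the atrial markers called lower to 3, against 0, and the pericyte markers called lower to 2, against 1, and Pdgfra lost its call (adjusted p = 0.0586). Deviations of same-numbered arrays correlated at 0.090, 0.048 and 0.070 for replicates 1, 2 and 3, each the highest value for its knockout array. Differently numbered arrays correlated at -0.12 to 0.055, the highest being wild type replicate 2 with knockout replicate 3. All these values are small, and they do not settle whether the numbers mark pairs. The numbers were not taken as pairs in the main test. The number of arrays and the absence of detection calls limit what dim genes can show.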
